A study of Mus musculus with 2 samples.

Results

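The genes described here encode the enzymes that write and erase methyl groups on histones: lysine methyltransferases, arginine methyltransferases and histone lysine demethylases. They were taken by name, as every probe set with a single gene symbol that begins with Kmt, Setd, Kdm, Prmt, Suv39h, Suv420h, Ezh, Ehmt, Smyd, Nsd or Whsc1, or is Dot1l or Carm1. This gave 61 of the 18193 genes on the array, read by 165 probe sets. Of these, 2 carry such a prefix without being either kind of enzyme, the sterol synthesis gene Nsdhl and the Polycomb inhibitor gene Ezhip, and they were left out of both classes. The remaining 59 genes were 41 methyltransferases with 108 probe sets and 18 demethylases with 55.

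RNA came from the pancreas of male offspring of C57BL/6J females, aged 10 weeks. The mothers ate control diet or methionine-deficient diet while pregnant, and all offspring ate control diet from weaning at 3 weeks. The diet in pregnancy is the only difference the labels give. Each group's RNA formed 1 pool, hybridised to 1 Affymetrix expression array, with the number of mice per pool not given in these sources, so there were 1 control pool and 1 methionine-deficient pool. With n = 1 array per group the spread between mice and between arrays could not be measured, no test was possible, and every value below is a single value. The comparison asks whether transcripts of the methylation enzymes differed in adult offspring after a maternal diet short of methionine.

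Methyltransferases of this kind take the methyl group from S-adenosylmethionine, which cells make from methionine, and place it on lysine or arginine side chains. The position of the methylated lysine matters: methylation of histone H3 at lysine 4 (H3K4) and lysine 36 (H3K36) marks active genes, while H3K9, H3K27 and H4K20 methylation are linked to silent chromatin. Demethylases remove the mark, either as amine oxidases that use flavin (KDM1) or as JmjC dioxygenases that use iron and alpha-ketoglutarate (all other KDM families). In the pancreas, Polycomb methylation of H3K27 is known for its part in the choice between acinar, duct and endocrine fates and in the renewal of beta cells.

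Differences are given as methionine-deficient minus control on the scale log2(intensity + 1). A probe set was read as measured if its mean level on this scale reached the median over the array with its control features left out, an intensity of about 150.3. Pairs of intensities are given with the control pool first and the methionine-deficient pool second. A gene takes the value of its brightest probe set. The error beside a value, called the probe-set spread, is the robust SD of the difference between probe sets of 1 gene at the same level, and it covers probe noise within these 2 arrays only. From the dimmest to the brightest of 5 level bins it was 0.78, 0.59, 0.41, 0.28 and 0.18, and below the level filter it was 1.86. The filter was passed by 37 methyltransferase and 16 demethylase genes, 53 of the 59.

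The arrays matched their labels as pancreas: all 8 acinar markers with a probe set passed the filter, with differences between -0.08 and 0.06, and so did all 9 islet markers, with differences from -0.66 (Slc30a8) to 0.39 (Gcg). Median intensity was 165 on the control array and 171 on the methionine-deficient array. The 3'/5' signal ratio of transcript ends, which reflects RNA integrity, was 1.46 and 1.76 for Actb and 0.973 and 1.11 for Gapdh. Duct markers ran from -0.28 to 0.74 (3 of 5 higher, Cftr below the filter), with summed intensities of 22187 and 20318. Markers of other immune cells ran from -0.58 to 1.01 (4 of 8 higher, Cd3e and Cd3g below the filter), with summed intensities of 9730 and 11257, and the highest was the macrophage gene C1qa at 1181 and 2381. Of 7 measured B and plasma cell markers 6 were lower (median -0.42, Pax5 below the filter), and their summed intensity was 12794 and 7614. Endothelial markers were higher in 4 of 4 cases (median 0.43, Kdr below the filter), with summed intensities of 1697 and 2209. Fibroblast and stellate cell markers were higher in 5 of 6 cases (median 0.19), with summed intensities of 22079 and 22461, and 3 of 3 measured adipocyte markers were lower (median -0.21, Lep below the filter), with summed intensities of 15357 and 12989. The part of RNA integrity and of these cell types in the enzyme values was not tested, and in bulk RNA fewer cells of a type and less RNA per cell cannot be told apart.

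Both classes had medians close to 0 and genes in both directions. Methyltransferase genes were higher in the methionine-deficient pool in 19 cases and lower in 18, with a median log2 difference of 0.0005 and an interquartile range from -0.31 to 0.21. Demethylase genes were higher in 7 and lower in 9, with a median of -0.03 and an interquartile range from -0.20 to 0.16. The medians of the classes differed by 0.03. Over all 11848 genes past the filter, 5924 differed in each direction (median 0.00), with an interquartile range from -0.24 to 0.27.

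Counts past a fixed fold were set beside those of all genes. Prmt2 was the one enzyme gene past 2-fold, on the lower side, and no enzyme gene was 2-fold higher. Prmt2 was under 2-fold with a pseudocount of 16 (-0.99) or the mean over its probe sets (-0.81), and Nsd3 passed 2-fold with median centring (-1.05). Among all genes the 2-fold mark was passed by 3.87% on the higher side and by 2.8% on the lower side. At 1.5-fold, 4 methyltransferases were higher (Kmt5c, Dot1l, Kmt2e and Prmt5) and 3 lower (Prmt2, Nsd3 and Setdb2), while 2 demethylases were lower (Kdm5a and Kdm8) and 0 higher. The shares of all genes past 1.5-fold were 10.4% higher and 9% lower. The other 44 of the 53 enzyme genes lay within 1.5-fold, and 16 lay within 0.1 on the log2 scale. A difference of more than 2 probe-set spreads was seen for 3 enzyme genes, Kmt2e, Nsd3 and Prmt2, all methyltransferases, against 8.41% of all genes. Shares past a fixed fold depend on level. From the dimmest to the brightest bin, the share of all genes past 2-fold either way fell from 22.5% to 0.39%. The share past 1.5-fold fell from 46.0% to 2.4%. Bins 3, 4 and 5 held 9, 16 and 5 of the methyltransferases and 6, 6 and 2 of the demethylases. The shares over all levels are thus not matched to the enzyme genes.

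**Figure D1:**
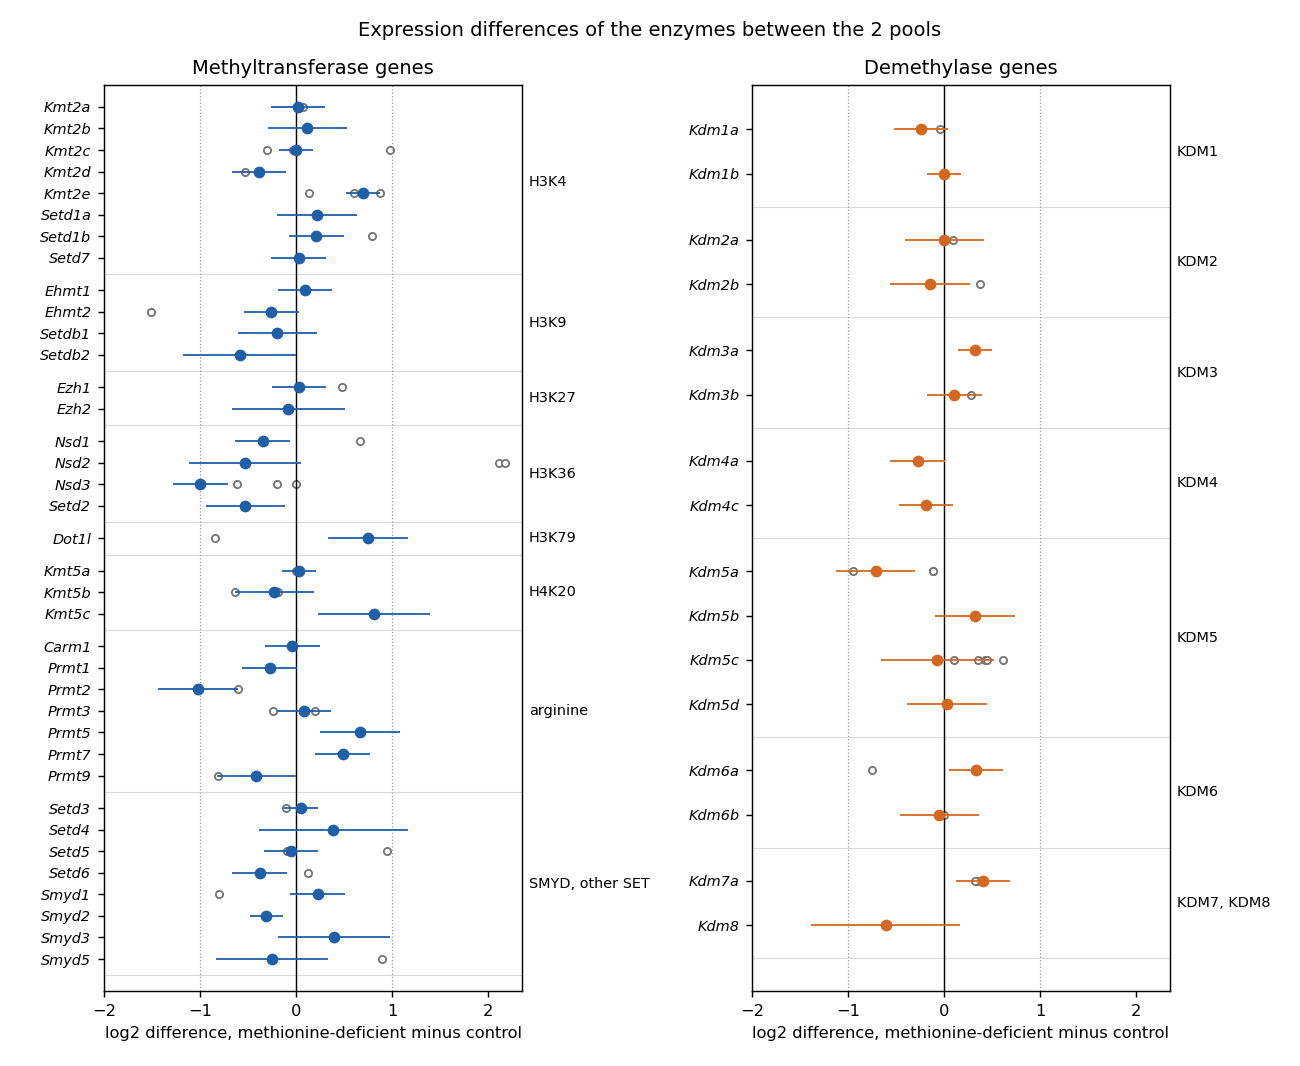
Log2 difference (methionine-deficient minus control, x axis) of each methyltransferase gene (left) and demethylase gene (right) past the level filter, grouped by the residue or family named at the right. Filled points are the brightest probe set with its probe-set spread as the bar, open points the gene's other probe sets past the filter, and dotted lines mark 2-fold; both classes scatter around 0, and the open points of Nsd2, Ehmt2 and Dot1l lie far from the filled ones.

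**Figure D2:**
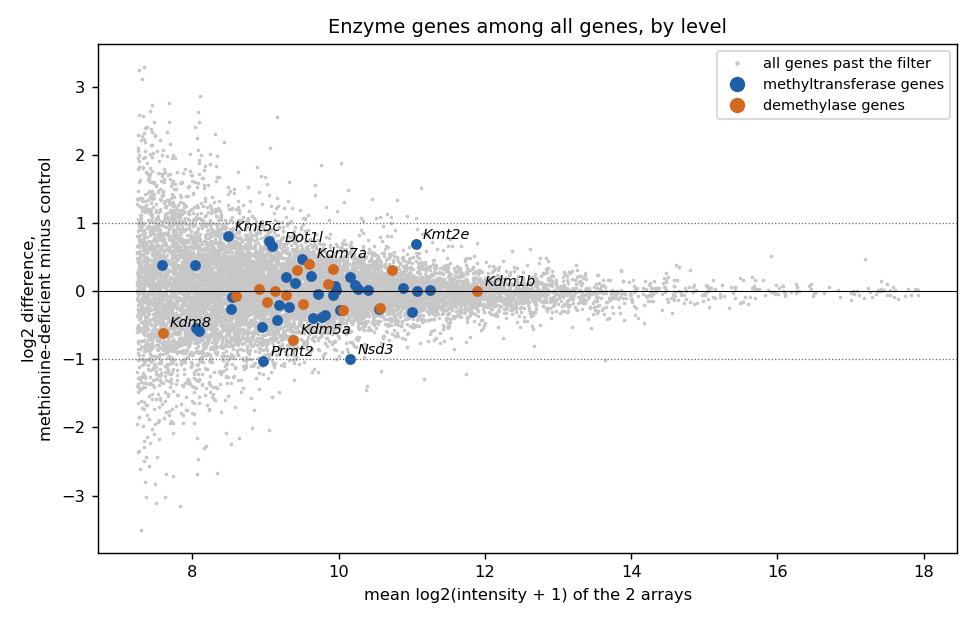
Log2 difference (methionine-deficient minus control, y axis) against mean log2(intensity + 1) of the 2 arrays (x axis) for all 11848 genes past the filter (grey) and the 37 methyltransferase and 16 demethylase genes (coloured). The scatter of all genes narrows with level; Kmt2e and Nsd3 lie near the edge of the scatter at their level.

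Of the genes grouped here as H3K4 methyltransferases, Kmt2e had the largest difference in its brightest probe set. Kmt2e encodes a family member with little methyltransferase activity of its own, which binds methylated H3K4 through its PHD finger. Its brightest probe set read 1671 and 2708, which is 0.70 higher after the deficient diet (probe-set spread 0.18). The other 3 Kmt2e probe sets past the filter went from 506 to 766, from 298 to 327 and from 150.4 to 276, so all 4 were higher. A further 2 Kmt2e probe sets below the filter were lower, at 125 and 77.7 and at 90.3 and 12.8. Kmt2d, the main enzyme of enhancer H3K4 monomethylation together with Kmt2c, was the lone H3K4 gene on the lower side, with intensities of 921 and 704 (-0.39, probe-set spread 0.28). Its second probe set, at 208 and 144, was also lower but passed the filter through its control value alone. Kmt2c itself had 2154 and 2155 in its brightest probe set, while its other probe sets ranged from -0.30 to 0.97.

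Among the remaining H3K4 genes, the differences of the brightest probe sets were 0.22 or less. Kmt2a, the mixed-lineage leukaemia gene that keeps Hox genes active, had 991 and 1004 (0.02), and its second probe set gave 0.07. Setd1a, a catalytic subunit of the main H3K4 trimethylation complex, had 574 and 666 (0.22, probe-set spread 0.41). Its close relative Setd1b had 1055 and 1220 (0.21) in its brightest probe set and 809 and 1394 (0.78) in the other, each with a probe-set spread of 0.28, so the second exceeded 2 spreads. Kmt2b gave 0.12, and Setd7, which also methylates many proteins other than histones, gave 0.02. Counted by direction, 7 of the 8 H3K4 genes were higher, with a median of 0.07. With each array's median subtracted, 4 were higher and 4 lower, so the count rests on values close to 0.

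H3K36 methyltransferases were lower in 4 of 4 cases by their brightest probe sets, with a median of -0.53, but other probe sets of these genes disagreed. Setd2, the enzyme of H3K36 trimethylation along transcribed genes, had 597 and 413 (-0.53, probe-set spread 0.41) and has no other probe set. Nsd3, which dimethylates H3K36, had 1611 and 806 (-0.9985, probe-set spread 0.28), just short of 2-fold. Its other probe sets past the filter had 740 and 738, 895 and 583, and 644 and 561, so all 4 were lower or level. Its dim probe sets, below the filter, had 84.7 and 49.9 and 6.21 and 128. Nsd1, mutated in the Sotos overgrowth syndrome, had 1012 and 794 (-0.35, probe-set spread 0.28) in its brightest probe set and 182 and 288 (0.66, probe-set spread 0.78) in its second.

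Nsd2 showed the widest disagreement within a gene among the enzymes past the filter. Nsd2 encodes an H3K36 dimethyltransferase that is overexpressed through a translocation in multiple myeloma. Its brightest probe set was lower, with intensities of 319 and 220 (-0.53, probe-set spread 0.59). The other 2 past the filter were higher, at 104 and 452 (2.11, probe-set spread 0.78) and at 92.8 and 422 (2.17, probe-set spread 0.78). Both probe sets below the filter were higher too, at 30.1 and 230 (2.89) and at 25.3 and 115 (2.15). In the control pool these 4 lay below that array's median of 165. The 2 past the filter lay under its intensity of 150.3 there. They passed through their methionine-deficient values, which favours a higher difference. The probe set at 2.17 and the one at -0.53 are annotated to the same GenBank sequence. Averaged over the 3 probe sets past the filter Nsd2 was 1.25 higher, and by such means 2 of the 4 H3K36 genes were higher and 2 lower (median -0.15). The Nsd2 mean rests on the 2 probe sets whose higher difference the filter favoured. B and plasma cell markers were lower in 6 of 7 cases, as given above. Proliferation markers were lower in 7 of 10 cases (median -0.09, summed intensity 7187 and 6778, with Top2a, Cdk1, Birc5, Bub1, Bub1b, Ccnb2 and Tyms below the filter). The part of these cell types in the Nsd2 values was not tested.

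**Figure D3:**
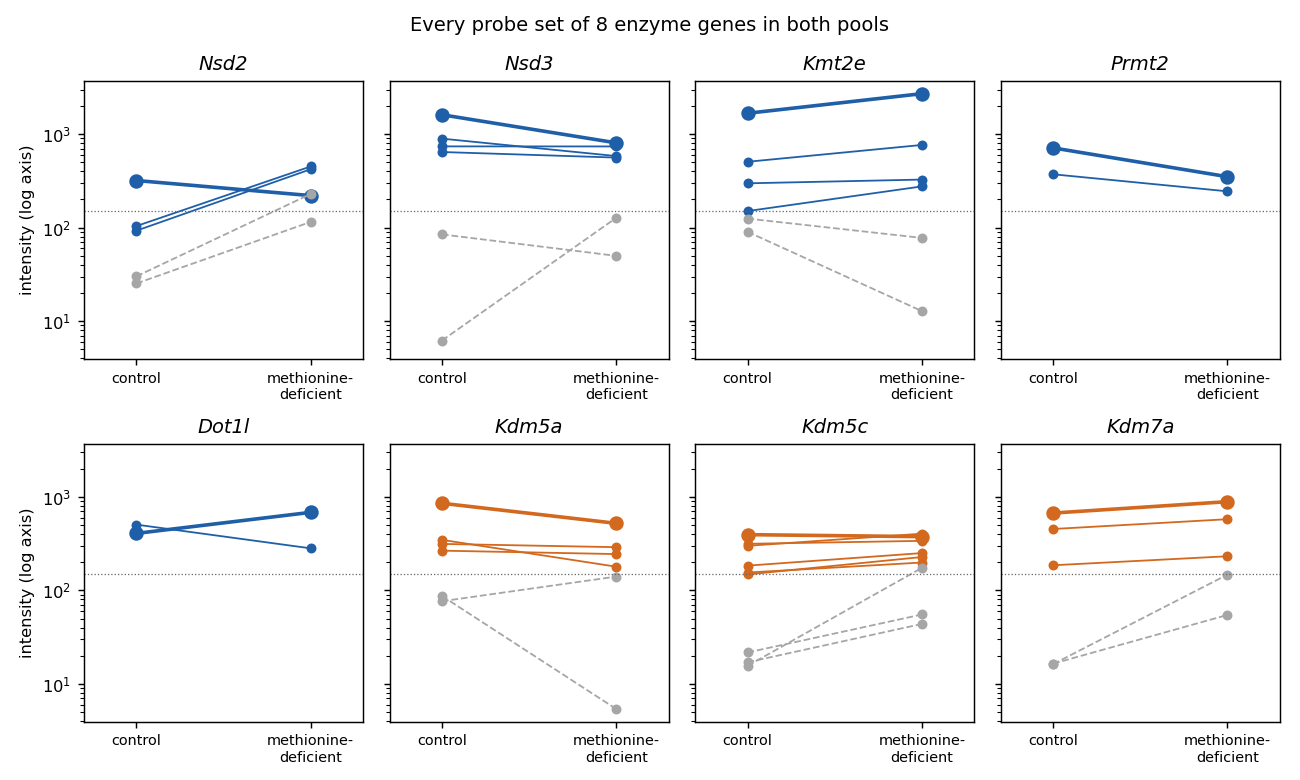
Intensity (log axis) of every probe set of 8 enzyme genes in the control and methionine-deficient pools, with 1 line per probe set. Thick lines are the brightest probe set, thin coloured lines others past the level filter (blue methyltransferases, orange demethylases), dashed grey lines those below it, and the dotted line is the filter at about 150.3; lines of Prmt2 and Kdm7a run the same way, those of Nsd2 and Dot1l cross. The 8 genes were chosen after their values were seen.

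Enzymes that methylate H3K9 included 1 gene past 1.5-fold, Setdb2, while both H3K27 enzymes lay close to 0 in their brightest probe sets. Ehmt2 and Ehmt1 encode G9a and GLP, which act as a pair on H3K9. Ehmt2 had intensities of 1646 and 1375 (-0.26, probe-set spread 0.28), and a second, dimmer probe set had 313 and 109 (-1.51, probe-set spread 0.78), the lowest difference of any enzyme probe set past the filter; it passed through its control value. Ehmt1 had 1157 and 1231 (0.09). Setdb1, which silences transposons, had 620 and 541 (-0.20, probe-set spread 0.41), and its relative Setdb2 had 334 and 222 (-0.59, probe-set spread 0.59). Thus 3 of 4 H3K9 genes were lower, each by about its own probe-set spread or less in the brightest probe set. Suv39h2, a heterochromatin enzyme, lay below the filter with 3 probe sets in both directions, and Suv39h1 was not analysed here.

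Ezh2 and Ezh1 are the alternative catalytic subunits of Polycomb repressive complex 2. Ezh2, the form typical of dividing cells, had 383 and 362 (-0.08, probe-set spread 0.59). Ezh1, the form of resting cells, had 1213 and 1236 (0.03, probe-set spread 0.28), and 404 and 563 (0.48) in its second probe set. Among 10 other genes of this complex past the filter, from a list of its partners, 4 had a higher and 6 a lower value (median -0.05). Suz12, a core subunit, was the lowest at -0.47, with 2 of its 4 probe sets past the filter higher and 2 lower. Jarid2, which recruits the complex, was the highest at 0.39, though 2 of its 3 probe sets past the filter were lower. In their brightest probe sets, the catalytic subunits and these partners stayed within 1.5-fold.

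Dot1l, the enzyme of H3K79 methylation, had probe sets on both sides. The brightest went from 406 to 683 (0.75, probe-set spread 0.41), and the other from 504 to 281 (-0.84, probe-set spread 0.59). The mean of these was -0.05, so no direction can be given for the gene. For H4K20, Kmt5a, which sets the monomethyl mark in the cell cycle, had nearly equal intensities in both of its probe sets past the filter, 2422 and 2466 (0.03) and 2247 and 2246 (0.00). Kmt5b, which adds the further methyl groups, was lower in all 3 of its probe sets past the filter (-0.23, -0.19 and -0.63). The probe set at -0.63, with 222 and 143, passed through its control value alone, which favours a lower difference. The probe sets at -0.23 and -0.19 are annotated to the same GenBank sequence. Kmt5c, a relative of Kmt5b, was higher in its lone probe set, at 270 and 473 (0.81, probe-set spread 0.59).

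Arginine methyltransferases held the largest lower value. Prmt2, a nuclear receptor coactivator with weak enzyme activity, had 713 and 350.4, 2.03-fold lower (-1.02, probe-set spread 0.41). Its second probe set was lower as well, at 372 and 245 (-0.60, probe-set spread 0.59), though its type may also bind other transcripts. Prmt9, which methylates a splicing factor, was lower in both probe sets past the filter, at 659 and 495 (-0.41) and at 218 and 123 (-0.82). The latter passed the filter through its control value alone, which favours a lower difference. Prmt1, the main enzyme of asymmetric dimethylation, had 1141 and 943 (-0.27, probe-set spread 0.28). Carm1, a coactivator that methylates histone H3, had 854 and 832 (-0.04).

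On the higher side stood Prmt5 and Prmt7. Prmt5, the main enzyme of symmetric dimethylation, had 431 and 683 (0.66, probe-set spread 0.41) in a probe set that may bind more than 1 transcript. Its obligate cofactor gene Wdr77 had a difference of 0.04, and its adaptor gene Clns1a one of -0.02. Prmt7, which adds single methyl groups, had 609 and 852 (0.48, probe-set spread 0.28). Prmt3, which acts on a ribosomal protein, gave 0.08, -0.24 and 0.19 in the 3 measured probe sets. In all, 3 of the 7 arginine methyltransferase genes were higher and 4 lower (median -0.04). Prmt6 and Prmt8 lay below the filter.

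Other SET domain genes split evenly, with 4 of 8 higher and a median of 0.00 (3 higher and 5 lower with median centring). Smyd3 had 228 and 300.1 (0.39, probe-set spread 0.59) and Setd4 had 167 and 218 (0.39, probe-set spread 0.78). Setd6, which methylates an NF-kappaB subunit, had 1002 and 769 (-0.38, probe-set spread 0.28) in its brightest probe set and 697 and 760 (0.12) in its second. Smyd2, which methylates p53 and other proteins, had -0.31 (probe-set spread 0.18), the actin histidine methyltransferase gene Setd3 had 0.05, Setd5 had -0.06 and Smyd5 had -0.25. The dimmest measured probe sets of Setd5 and Smyd5 went the other way, at 0.95 and 0.89 (probe-set spread 0.59 each). Smyd1, a gene of striated muscle, had 0.22 in its brightest measured probe set and -0.81 in the other, on arrays where 4 of 5 skeletal muscle markers (Acta1, Myh4, Mylpf and Tnnt3) lay below the filter and the other, Ckm, was at 307 and 195.

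Among the demethylases, those acting on H3K4 held both agreement and conflict. Kdm5a had intensities of 853 and 521 (-0.71, probe-set spread 0.41). All 4 of its probe sets past the filter were lower, with differences of -0.71, -0.12, -0.12 and -0.95. The probe sets at -0.71 and -0.95 are annotated to the same GenBank sequence, and those at -0.12 had a probe-set spread of 0.59 each. Of its 2 dim probe sets 1 was higher and 1 lower. Kdm5c, an X-linked member, had 394 and 375 (-0.07, probe-set spread 0.59) in its brightest probe set, while the other 5 past the filter were higher, between 0.11 and 0.61. The one at 0.61 had 148 and 227 and passed the filter through its methionine-deficient value, which favours a higher difference. It is annotated to the same GenBank sequence as the one at 0.44. With its 3 dim probe sets, 8 of the 9 Kdm5c probe sets were higher. The dim ones had control intensities of 15.6, 21.7 and 17.0, where the probe-set spread was 1.86, so they add little. Kdm5b had 614 and 767 (0.32, probe-set spread 0.41), and the Y-linked Kdm5d gave 0.03. Kdm1a, the flavin-dependent LSD1, had 1647 and 1394 (-0.24, probe-set spread 0.28) and -0.05 in its second probe set. Its relative Kdm1b had 3804 and 3804.

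Demethylases of H3K9, H3K27 and H3K36, Kdm8 apart, stayed within 1.5-fold in their brightest probe sets, and Kdm7a was higher in all of its probe sets. Kdm7a, which acts on H3K9 and H3K27, had 670 and 888 (0.40, probe-set spread 0.28) in its brightest probe set. Its other probe sets past the filter had 453 and 576 (0.35) and 185 and 231 (0.32). Both dim Kdm7a probe sets were also higher, at 16.3 and 147 and at 16.4 and 54.6, so 5 of 5 shared the direction. The dim ones are annotated to the same GenBank sequence, and the probe-set spread below the filter was 1.86, so they add little. Kdm6a, the X-linked H3K27 demethylase UTX, had 864 and 1087 (0.33, probe-set spread 0.28) in one probe set and 535 and 317 (-0.75, probe-set spread 0.41) in the other. Kdm6b, the inducible H3K27 demethylase, had 633 and 611 (-0.05) and a second probe set at -0.01.

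Kdm2a, which demethylates H3K36 and binds unmethylated CpG islands, had 558 and 559 (0.00), and Kdm2b gave -0.15 and 0.38. Kdm3a and Kdm3b, both H3K9 demethylases, gave 0.32 (probe-set spread 0.18) and 0.11. Kdm4a and Kdm4c, which act on H3K9 and H3K36, gave -0.28 and -0.19, each with a probe-set spread of 0.28; Kdm4a had intensities of 1179 and 972. Kdm8 had 238 and 156 (-0.61, probe-set spread 0.78), close to the filter. Kdm4b and Kdm4d lay below it. Writers and erasers of the same residue were set side by side by their medians. Kdm7a (0.40), which acts on H3K9 and H3K27, and Kdm8 (-0.61) were not included. At H3K36 the methyltransferases had -0.53, the Kdm2 genes -0.07 and the Kdm4 genes -0.23, and with the mean over probe sets these were -0.15, 0.08 and -0.23. At H3K9 the methyltransferases had -0.23, the Kdm3 genes 0.21 and the Kdm4 genes -0.23, and with the mean over probe sets these were -0.39, 0.255 and -0.23. The move to -0.39 came from the second Ehmt2 probe set (313 and 109). That probe set passed the filter through its control value, which favours a lower difference. At H3K27 the Ezh genes had a median of -0.03 and the Kdm6 genes one of 0.14, an order that turned with the mean over probe sets (0.085 and -0.12). At H3K4 the 8 genes grouped as methyltransferases, Kmt2e among them, had 0.07, the Kdm5 genes -0.02 and the Kdm1 genes -0.12. With the mean over probe sets these were 0.14, 0.17 and -0.07, so the order of the methyltransferases and the Kdm5 genes turned too. Each eraser family here rests on 2 to 4 genes.

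Repeat readings of a gene by different probe sets were the one internal check these arrays allow. Of the 30 enzyme genes with 2 or more probe sets past the filter, 16 had all of them on 1 side, and 39.6% of the 4819 such genes overall did. These were 10 of 21 methyltransferases (4 higher, 6 lower) and 6 of 9 demethylases (3 higher, 3 lower). Only Kdm7a on the higher side and Prmt2, Prmt9 and Kmt2d on the lower side had every such probe set at 0.3 or more in size, 4 of the 30 against 7.91% of all such genes. In Prmt9 and Kmt2d the second probe set lay under the filter intensity in the methionine-deficient pool and passed on the mean of both, so its direction is no independent support, while every such probe set of Kdm7a and Prmt2 lay above it in both pools. Among the 16, Ehmt2 (313 and 109) and Kmt5b (222 and 143) also counted a probe set that passed through its control value. Others counted a probe set close to 0, such as Nsd3 (-0.0020), Kdm2a (0.0024) and Kdm6b (-0.0060). In Ehmt2, Ezh1, Kdm1a and Kmt2a both measured probe sets are annotated to the same GenBank sequence, as is a pair in Kdm5a and in Kmt5b. The count of 16 is therefore not support for a direction. By probe set in place of gene, 33 of 68 methyltransferase probe sets were higher with a median of -0.0015, and 17 of 32 demethylase probe sets with a median of 0.02.

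The promoters of Kdm7a and Prmt2 are printed because these genes had the largest uniform difference in each direction, by the smallest of their probe sets. Each window runs from 250 bases before to 50 bases after the RefSeq start on GRCm38.p6, minus strand, with every CG dinucleotide, the site of DNA methylation, in capitals. Kdm7a lies at chr6:39206724-39207023 and Prmt2 at chr10:76237816-76238115.
Kdm7a: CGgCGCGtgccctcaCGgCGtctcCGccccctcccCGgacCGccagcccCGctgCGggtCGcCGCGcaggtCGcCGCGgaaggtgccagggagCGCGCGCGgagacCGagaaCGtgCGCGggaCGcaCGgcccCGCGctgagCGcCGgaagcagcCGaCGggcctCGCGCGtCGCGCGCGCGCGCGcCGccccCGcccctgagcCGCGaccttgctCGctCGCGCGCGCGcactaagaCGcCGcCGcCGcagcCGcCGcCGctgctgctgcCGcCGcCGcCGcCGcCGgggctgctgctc
Prmt2: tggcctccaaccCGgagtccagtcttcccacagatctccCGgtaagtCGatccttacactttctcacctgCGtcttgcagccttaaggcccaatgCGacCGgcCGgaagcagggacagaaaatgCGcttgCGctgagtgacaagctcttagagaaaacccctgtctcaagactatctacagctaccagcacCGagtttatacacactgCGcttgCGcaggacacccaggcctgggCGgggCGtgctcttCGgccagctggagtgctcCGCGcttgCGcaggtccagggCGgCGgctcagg
The Kdm7a window holds 65 CG, a number that 0.0091% of the 32851 promoter windows in the RefSeq table reach, and the Prmt2 window holds 20, which 26.5% reach; 94.6% of windows hold at least 1. Promoter windows were found for 29 of the 37 methyltransferase genes, with a median of 29 CG (1 to 56), and for 12 of the 16 demethylase genes, with a median of 23.5 (13 to 65). The median over 9521 genes past the filter with a window was 21. DNA methylation was not measured in these samples.

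The enzyme genes below the filter had large but unsteady differences. Suv39h2 had 5.80 and 110 in 1 probe set, but 32.4 and 18.8 and 17.3 and 4.35 in the others. Prmt6, an enzyme of histone H3 arginine methylation, was lower in both probe sets, at 253 and 17.5 and at 57.2 and 22.4. Smyd4 was higher in both, at 18.4 and 185 and at 22.3 and 67.1. Kdm4b had 46.6 and 167, Kdm4d had 23.9 and 12.9, and Prmt8, known from neurons, had 4.71 and 10.7, in 1 probe set each. Of the 63 enzyme probe sets below the filter, 24 were higher and 19 lower by 2-fold or more, 68.3%, against 56.2% of all probe sets below it. The probe-set spread there was 1.86, and no detection call was used to tell signal from background.

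Partner genes of the H3K4 complexes leaned to the lower side, by small amounts. In a list of 13 subunits of the COMPASS and MLL complexes, all past the filter, 11 were lower and 2 higher, with a median of -0.09, while 5924 of all 11848 genes were lower. Wdr82, which ties SETD1 complexes to RNA polymerase, was the lowest, with 1220 and 638 (-0.93, probe-set spread 0.28) in its lone probe set past the filter. Psip1, a chromatin tether of MLL, was the highest at 0.38 (probe-set spread 0.41). Men1, the tumour suppressor menin, had 528 and 395 (-0.42), with all 3 of its probe sets past the filter lower. Over the other probe sets of 7 of these genes, however, 4 were higher and 3 lower (median 0.02), whereas by the mean over probe sets 11 of 13 were again lower (median -0.07).

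Partners of other methylation enzymes, 16 past the filter, were higher in 10 cases and lower in 6, with a median of 0.19 that was 0.01 over their other probe sets. They ran from the SETDB1 cofactor gene Atf7ip at -0.66 to the LSD1 complex gene Hmg20b at 0.80. A further 17 SET, PRDM and JmjC genes outside the name rule were higher in 8 cases and lower in 9 (median -0.04). Their lowest was Riox2, a JmjC hydroxylase of ribosomal proteins, at -0.64 with all 4 of its probe sets past the filter lower. Their highest was Hspbap1 at 1.82 (probe-set spread 0.78), with 84.4 and 301. Hspbap1 passed the filter through its methionine-deficient value alone, which favours a higher difference.

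The balance of methyltransferases against demethylases depended on small amounts under every processing. The medians of both classes stayed between -0.08 and 0.09 in all alternatives tried. Methyltransferases exceeded demethylases by 0.03 as reported, and the order turned with the mean over probe sets (-0.0017) and over the other probe sets only (-0.09).

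**Figure D4:**
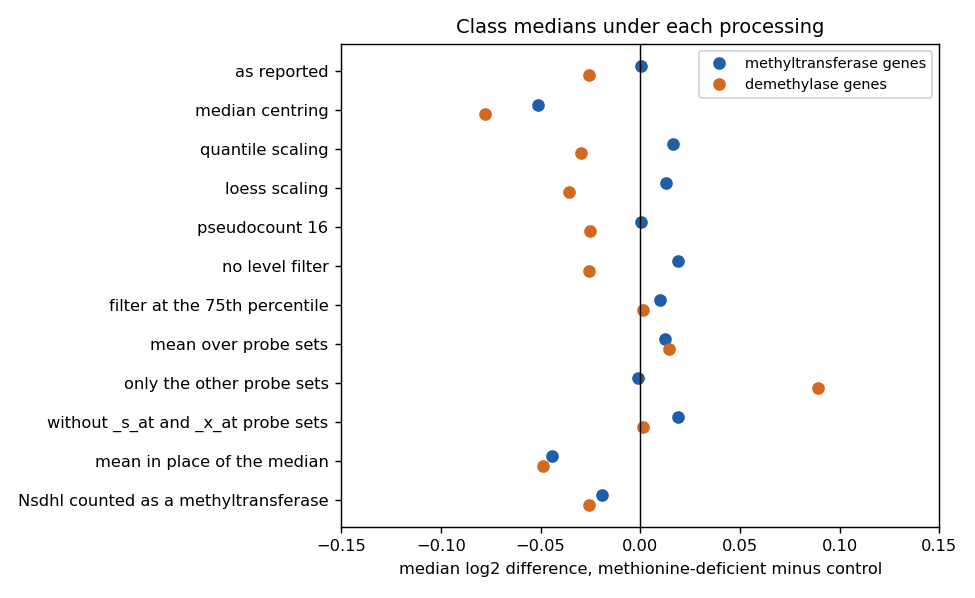
Median log2 difference (methionine-deficient minus control, x axis) of the methyltransferase genes (blue) and the demethylase genes (orange) under each processing (y axis). All medians lie between -0.08 and 0.09, and the demethylase median moves most, to 0.09, when only the probe sets other than the brightest are read.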

How the data were processed

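Intensity per probe set was deposited by the authors on a linear scale for 2 pools, 1 array each. No program, background correction or scaling is given in the sources used here; a mean that drops the top and bottom 2% of values was 500.003 on both arrays. Per the labels, cRNA was biotin-labelled with a 3' IVT kit. Gene symbols came from the platform annotation of 2016: of 45101 probe sets 64 were array controls, 34945 had 1 symbol, 932 several and 9160 none.

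Values were taken to log2(intensity + 1) without rescaling, and differences are methionine-deficient minus control. The level filter, the choice of the brightest probe set and the probe-set spread are as described above. The counting and the spread were tested on simulated data with changes past 2-fold and the same noise at every level. Smaller changes and a spread that varies with level were not covered by that test. Both intensities are printed for the 10 largest higher and lower enzyme genes, those whose probe sets agreed at 0.3 or more, those past 2-fold and a fixed set of 21 enzymes; intensities of other members complete the account and were added after their values were seen. In the other lists, genes are named for their extremes, and Men1, Wdr77 and Clns1a were added after their values were seen. Members and lists were chosen with earlier results of these data known. The written design counted every member outside the Kdm prefix as a methyltransferase; Nsdhl and Ezhip were left out after the member list was seen. Computations used Python 3.11.15 with numpy 2.4.6, pandas 2.3.3 and statsmodels 0.14.6.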

Additional observations from a re-analysis of the deposited data

How the results depend on the processing

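No paired analysis was possible because each group is 1 pool, and for the same reason no replicate could be left out. Class medians were compared with a yardstick taken from the spread over their genes (0.06 and 0.07, and 0.09 for their difference). This yardstick treats the genes as independent and covers no spread between mice or arrays. Class medians moved by less than it, except over only the probe sets other than the brightest. There the demethylase median was 0.089 (9 genes) and the methyltransferase median minus it was -0.0905. The cause was not tested. Methyltransferases at least 2-fold lower numbered 2 with median centring and with quantile scaling, where Nsd3 joined Prmt2, and 0 with a pseudocount of 16, with the mean over probe sets and at 3-fold. At 1.5-fold there were 4 higher and 3 lower methyltransferases and 2 lower demethylases. Without a level filter 3 methyltransferases were higher and 2 lower, and 1 demethylase was higher. Methyltransferases at least 2-fold higher numbered 1 with the mean over probe sets and 1 over the other probe sets, in each case Nsd2. The higher Nsd2 probe sets passed the filter through their methionine-deficient values, which favours a higher difference. Counting Nsdhl as a methyltransferase, an alternative chosen after seeing the data, gave a median of -0.02. Members chosen by current symbols were the same. Among the 35 genes with both intensities fixed by rule, the sign turned for 5 with the mean over probe sets (Dot1l, Kdm5c, Kdm6a, Nsd1 and Nsd2), for 7 of 20 over the other probe sets, and for 4 near 0 with median centring (Ezh1, Kdm2a, Kmt2a and Kmt5a). Median centring lowered all genes by 0.05. It also moved the share of higher genes among all those past 2-fold from 58.0% to 51.3%.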
